A study of Homo sapiens with 4 samples.

Results

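The ERBB receptors and the EGF-family growth factors that bind them were examined in AGS cells, a line established from a human gastric adenocarcinoma. The members were the 10 genes EGFR, ERBB2, ERBB3, ERBB4, AREG, EREG, TGFA, HBEGF, BTC and EGF, found by symbol among the 47251 genes of the deposited table, and each symbol matched 1 row. Of the 10, 6 averaged 1 FPKM or more and entered the test: EGFR, ERBB2, ERBB3, TGFA, HBEGF and BTC. FPKM is a fragment number divided by transcript length and by sequencing depth, so levels of different genes are compared here only on that scale. RNA was sequenced from 4 libraries. In 2 of them the cells carried a short hairpin RNA against MFAP2 (sh-MFAP2 replicates 1 and 2, genotype given as MFAP2 silencing), and in the other 2 a control shRNA (control replicates 1 and 2). A short hairpin RNA is processed by the cell into a small RNA directed against the chosen mRNA. The labels call the cells transfected, and the study's methods describe lentiviral infection and selection with puromycin. The titles of both sh-MFAP2 libraries name the same hairpin, sh1, so a second hairpin was not compared here. Values given in pairs follow the replicate numbers, 1 before 2. The labels do not say whether the replicates came from separate cultures, and p-values therefore measure only the spread between these libraries, which may be technical.

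ERBB receptors are single-span membrane receptors of the tyrosine kinase class. A ligand bound outside the cell lets a pair of receptors join, and the pair then phosphorylates tails inside the cell that recruit adaptors of the RAS and PI3K pathways. EGF, TGFA and AREG bind EGFR, whereas HBEGF, BTC and EREG bind EGFR and ERBB4. ERBB2 has no known ligand and acts as a partner of the other receptors. ERBB3 binds neuregulins and has little kinase activity of its own. The ligands are made as membrane-bound precursors and released by sheddases such as ADAM17 and ADAM10. In gastric cancer ERBB2 is known for amplification in some tumours and as the target of trastuzumab.

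The knockdown target gave no check of the labels. MFAP2 was listed at 0 in both libraries of the sh-MFAP2 group and reached only 0.0116 and 0.0138 FPKM under the control shRNA. Reads per library, inferred from the spacing of low values and not given by the authors, were 54600000 to 74700000. Of 7 epithelial markers, 6 averaged 1 FPKM or more, and their list summed to 1781 to 2009 FPKM per library. CDH1, the adhesion protein of epithelial junctions, averaged less, at 0.584 and 0.853 FPKM under sh-MFAP2 versus 1.25 and 1.15 FPKM under the control shRNA. CLDN4, a claudin of tight junctions, was at 47.1 FPKM in sh-MFAP2 replicate 1 and at most 0.551 FPKM in the other 3 libraries. CLDN7, of the same family, was at 26.0 and 34.2 FPKM under sh-MFAP2 versus 46.1 and 48.2 FPKM under the control shRNA (log2 fold change -0.64, limma adjusted p = 0.371). Of 3 gastric mucosal markers only TFF1 passed 1 FPKM. Endothelial markers (0 of 3 at 1 FPKM) summed to at most 0.0380 FPKM, and fibroblast markers (1 of 7, COL1A1) to 2.35 and 2.12 FPKM under sh-MFAP2 versus 4.39 and 4.96 FPKM under the control shRNA. COL1A1, a collagen gene, had a log2 fold change of -0.83 (limma adjusted p = 0.221) and both sh-MFAP2 values below both controls. Leukocyte markers passed 1 FPKM only through LYZ (1 of 5), a gene that gastric epithelium also expresses. The leukocyte sum was 85.6 and 579 FPKM under sh-MFAP2 versus 89.3 and 369 FPKM under the control shRNA, and the part of these markers in any result was not tested. In bulk RNA, fewer cells of a kind and less RNA per cell cannot be told apart.

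None of the 6 tested members passed the test between the groups. The lowest adjusted p among them was 0.573, for EGFR (limma on log2(FPKM + 1), adjusted over the 9873 genes tested). By the same test 27 of 9873 genes, 0.273%, were called with p under 0.01 and adjusted p under 0.05, 15 higher and 12 lower in sh-MFAP2. At an unadjusted p under 0.05, limma called 0 of the 6 members and 1214 of all genes tested, 12.3%. The median log2 fold change (sh-MFAP2 minus control) was -0.07 over the 6 members and -0.05 over all genes tested. In 1 of the 6, BTC, both sh-MFAP2 values lay above both control values, a pattern found in 17.5% of all genes tested. In none did both lie below, against 31.4% of all genes tested. An exact permutation test of 1 value with 2 libraries against 2 cannot go below p = 0.333, so it is not given for single genes.

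**Figure D1:**
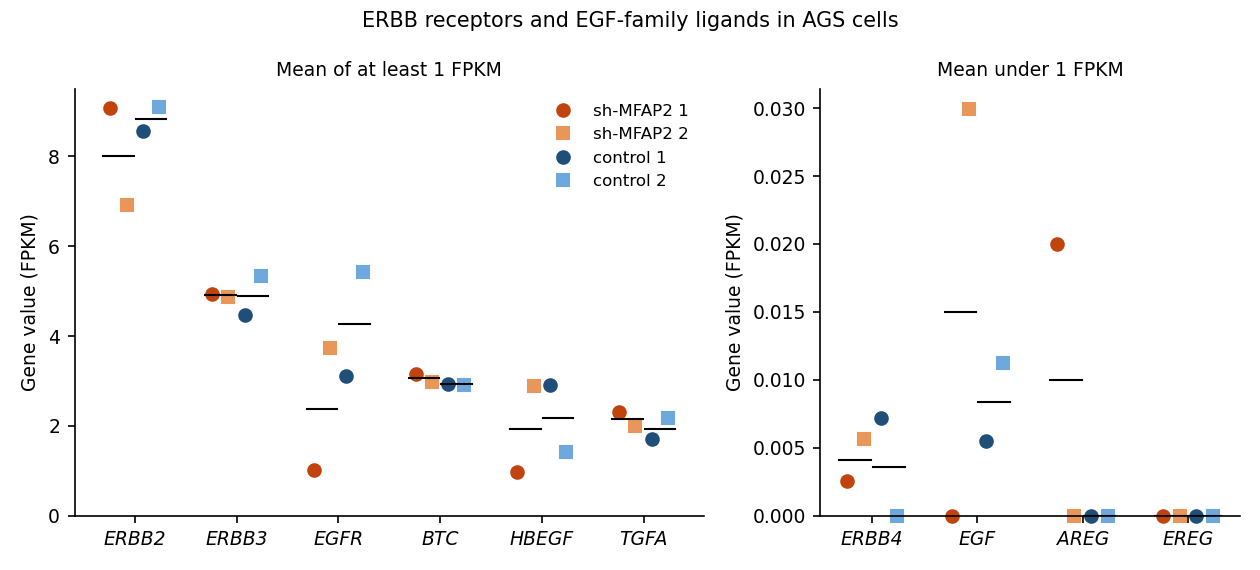
Gene values in FPKM of the 10 members (vertical axes, linear and on different scales in the 2 panels) in each of the 4 libraries, with points for libraries and a black line for the mean of each group. ERBB2 was the highest in every library, the libraries of a group differed most in ratio for EGFR and HBEGF among the 6 tested, and ERBB4, EGF, AREG and EREG lay at or near 0.

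The receptors stood in the order ERBB2, ERBB3, EGFR and ERBB4 by mean FPKM, at 8.42, 4.90, 3.33 and 0.00383. ERBB2 ranked above the other 9 members in every library, and its range did not overlap that of ERBB3. EGFR ranked 5 in sh-MFAP2 replicate 1, 3 in sh-MFAP2 replicate 2 and control replicate 1, and 2 in control replicate 2. Its range overlapped those of ERBB3 and BTC, its neighbours in the order. The gene values divide by a length taken over all annotated transcripts, which is 10258 bases for ERBB2 and 2816 for BTC. On the scale of the most abundant transcript, a comparison added after the data were seen, the order was the same for the 6 expressed members, and the mean was 18.2 FPKM for ERBB2, 6.22 for ERBB3, 4.34 for EGFR and 2.87 for BTC.

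ERBB2 (chromosome 17, 39687914 to 39730426, plus strand, GRCh38) was present at 9.09 and 6.92 FPKM under sh-MFAP2 versus 8.57 and 9.10 FPKM under the control shRNA. Only sh-MFAP2 replicate 2 stood below the other libraries, and the groups overlapped. The log2 fold change was -0.14 (SE 0.162, 95% interval -0.60 to 0.32, limma adjusted p = 0.723). Without sh-MFAP2 replicate 2 the log2 fold change was 0.0377. The full-length transcript ERBB2-201 made up 87.0% to 92.8% of the summed transcript FPKM of the gene. As a description over 4 libraries, the genes whose centred log2 profiles lay nearest to that of ERBB2 were RAB43 (Euclidean distance 0.0132), DHX8 (0.0272) and SNRNP200 (0.0285), and 849 genes lay within 0.2, so that a profile of this shape was common.

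EGFR (chromosome 7, 55019021 to 55211628, plus strand) had the largest difference of the 6, and also the widest spread between sh-MFAP2 replicates. It was read at 1.01 and 3.74 FPKM under sh-MFAP2 versus 3.12 and 5.43 FPKM under the control shRNA. The value of sh-MFAP2 replicate 2 lay between the 2 controls, and only sh-MFAP2 replicate 1 lay below them. The log2 fold change was -0.74 (SE 0.517, 95% interval -2.21 to 0.73, limma adjusted p = 0.573). The interval thus spans changes in both directions.

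The EGFR estimate rested on sh-MFAP2 replicate 1, the library in which CLDN4 also stood apart, and the part of that in the estimate was not tested. Without that library the log2 fold change was -0.12, and without sh-MFAP2 replicate 2 it was -1.36, both with the direction kept and neither called. The 2 sh-MFAP2 libraries differed from each other 3.71-fold and the 2 controls 1.74-fold. On the log2(FPKM + 1) scale the difference between sh-MFAP2 replicates was 1.24, larger than in 96.3% of the 6288 genes with a mean of 1 to 10 FPKM, whose median was 0.192. The control replicates differed by 0.64, larger than in 91.4% of those genes, whose median was 0.117. EGFR rested on 794 and 2646 inferred reads in sh-MFAP2 and 2389 and 5263 in control, far above the floor of 3.

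EGFR-201, the transcript of the full-length receptor, carried 86.5% and 97.2% of the summed EGFR transcript FPKM in sh-MFAP2 and 92.1% and 98.1% in control. At the transcript level EGFR-201 stood at 1.26 and 4.90 FPKM under sh-MFAP2 versus 4.07 and 7.15 FPKM under the control shRNA, with a log2 fold change of -0.82 (limma adjusted p = 0.726 over 22312 transcripts). No transcript in the table was called, 0% of those tested, with 1704 at an unadjusted p under 0.05 by limma. The 3 short coding transcripts EGFR-202, EGFR-203 and EGFR-204, which encode forms of the receptor that lack the kinase, summed to 0.0115 FPKM in sh-MFAP2 replicate 1, 0.0115 in replicate 2, 0.0504 in control replicate 1 and 0.0756 in control replicate 2. The 3 made up at most 1.14% of the gene's transcript sum in any library. A further coding entry of 2529 bases, ENST00000442591, which was not matched in GENCODE 29, made up at most 1.90%.

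**Figure D2:**
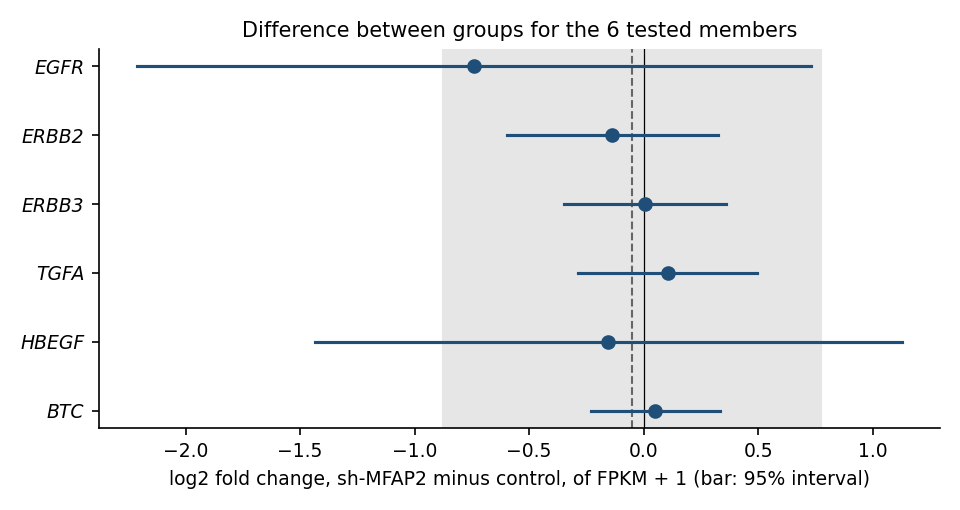
Log2 fold change of FPKM + 1 (horizontal axis, sh-MFAP2 minus control) of the 6 tested members, with bars for the 95% interval of the limma fit, a dashed line at the median of all genes tested (-0.05) and a grey band for the central 95% of the fold changes of all genes tested (-0.88 to 0.77). All 6 intervals cross 0, and those of EGFR and HBEGF are the widest.

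ERBB3 (chromosome 12, 56076799 to 56103505, plus strand) had a log2 fold change near 0, at 0.00600 (SE 0.124, 95% interval -0.35 to 0.36, limma adjusted p = 0.986). Its values were 4.94 and 4.87 FPKM under sh-MFAP2 versus 4.46 and 5.33 FPKM under the control shRNA. Both sh-MFAP2 values lay between the controls. This gene value combined a pair of coding transcripts that differ in what they encode. ERBB3-201 (ENST00000267101) has 28 exons and 1342 codons and encodes the full receptor. ERBB3-202 (ENST00000411731) has 3 exons and 183 codons, and runs on from exon 3 into the intron until a stop codon. The short product lacks the transmembrane segment and the kinase, and matches the RefSeq transcript of a short secreted form of ERBB3. The coding bases at which they part are given from GRCh38, plus strand, because the ERBB3 transcripts are told apart by them. ERBB3-202 is read without a break from chr12:56085152-56085312, through its stop codon. ERBB3-201 joins the last 30 bases of exon 3 (chr12:56085152-56085181) to the first 60 of exon 4 (chr12:56086531-56086590). Capitals mark the bases after the end of exon 3.
ERBB3-202: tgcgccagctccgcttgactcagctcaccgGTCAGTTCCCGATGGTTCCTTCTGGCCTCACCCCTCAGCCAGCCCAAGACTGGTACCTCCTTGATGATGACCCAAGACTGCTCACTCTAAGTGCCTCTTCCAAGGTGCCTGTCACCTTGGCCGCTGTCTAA
ERBB3-201: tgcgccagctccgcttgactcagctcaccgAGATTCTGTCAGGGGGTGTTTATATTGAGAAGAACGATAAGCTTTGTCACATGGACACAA

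After the shared exon 3, ERBB3-202 adds 42 codons of its own. Its last 442 bases lie inside intron 3 of ERBB3-201, which is 1349 bases long. Reads from unspliced ERBB3 RNA would fall on the same bases, and the deposited values do not separate them from the short transcript.

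ERBB3-201 stood at 6.57 and 6.32 FPKM under sh-MFAP2 versus 5.79 and 6.18 FPKM under the control shRNA, so that both sh-MFAP2 libraries lay above both controls. The difference was 0.09 on the log2 scale (SE 0.167, limma adjusted p = 0.878 over transcripts). ERBB3-202 stood at 3.01 and 3.92 FPKM under sh-MFAP2 versus 3.58 and 6.73 FPKM under the control shRNA, with a log2 fold change of -0.42 (SE 0.341, limma adjusted p = 0.737). Control replicate 2 was high, and control replicate 1 lay between the sh-MFAP2 libraries. The short transcript made up 27.8% and 34.9% of the summed ERBB3 transcript FPKM in sh-MFAP2, and 35.8% and 44.6% in control. Both shares in sh-MFAP2 were under both shares in control, the nearest pair being 34.9% and 35.8%, and shares were not tested. How often transcripts or their shares separate the groups like this was not counted over all transcripts, so no shift between the transcripts is read from it. The retained-intron transcript ENST00000546884 was also highest in control replicate 2, at 1.07 FPKM, against 0.993 and 0.595 FPKM under sh-MFAP2 and 0.344 FPKM in control replicate 1. Because the gene value weights each transcript by its length, the short form counts for little in it. With transcripts summed without that weight the log2 fold change of ERBB3 was -0.15, opposite in sign to that of the gene table and not called.

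**Figure D3:**
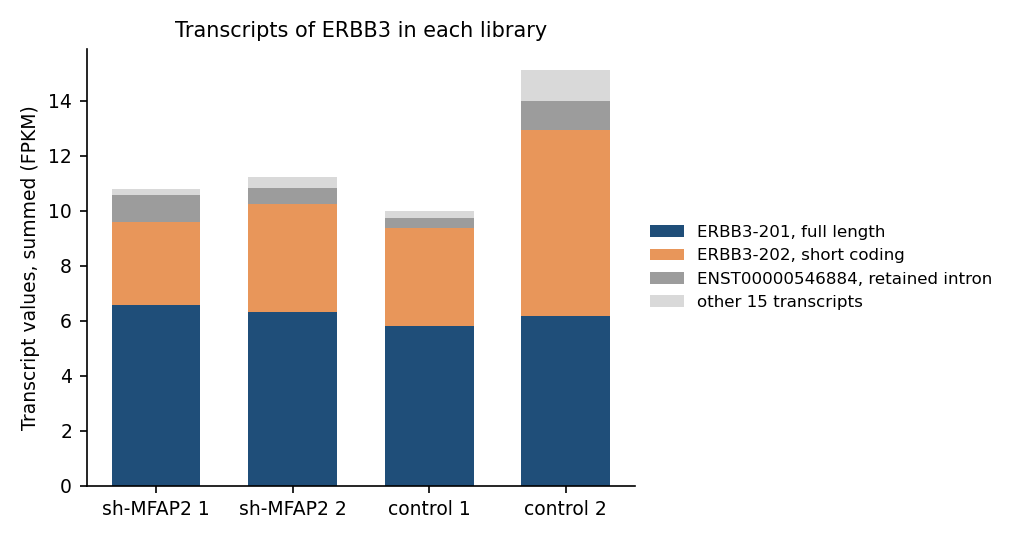
FPKM of ERBB3 transcripts (vertical axis, linear, from 0) stacked in each of the 4 libraries. The full-length transcript lay between 5.79 and 6.57 FPKM in all 4, whereas the short coding transcript ran from 3.01 FPKM in sh-MFAP2 replicate 1 to 6.73 FPKM in control replicate 2.

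ERBB4 (chromosome 2, 211375717 to 212538841, minus strand), the receptor for neuregulins that has a full kinase, was at 0.00253 and 0.00562 FPKM under sh-MFAP2 versus 0.00718 and 0 FPKM under the control shRNA. These values correspond to at most 5.52 inferred reads, and ERBB4 was not tested. Summed over the 4 receptors, the level was 15.0 and 15.5 FPKM under sh-MFAP2 versus 16.2 and 19.9 FPKM under the control shRNA. The sh-MFAP2 sums were both lower, a pattern found in 31.4% of all single genes tested, and no receptor showed it alone. The highest sum, in control replicate 2, held the highest EGFR and ERBB3 values. It also held the highest ERBB2 value, 9.10 FPKM against 9.09 FPKM in sh-MFAP2 replicate 1. EGFR made up 6.70% of this sum in sh-MFAP2 replicate 1 and 24.1% in sh-MFAP2 replicate 2, against 19.3% and 27.4% in control. The ratio of ERBB2 to EGFR in FPKM was accordingly 9.03 in sh-MFAP2 replicate 1 and 1.85, 2.75 and 1.67 in sh-MFAP2 replicate 2 and control replicates 1 and 2. The ratio of ERBB2 to ERBB3 varied less, from 1.42 to 1.92.

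The ligands in AGS cells were BTC, HBEGF and TGFA, with means of 2.997, 2.05 and 2.04 FPKM, and the ranges of neighbours in this order overlapped. The 6 ligands summed to 6.45 and 7.89 FPKM under sh-MFAP2 versus 7.57 and 6.51 FPKM under the control shRNA, with EGF, AREG and EREG adding almost nothing, and the groups overlapped. The share of BTC in the ligand sum was 49.0% and 37.7% in sh-MFAP2 and 38.8% and 44.7% in control. That of HBEGF was 14.9% and 36.6% in sh-MFAP2 and 38.6% and 21.8% in control.

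BTC (betacellulin; chromosome 4, 74744759 to 74794686, minus strand) was the steadiest of the 6 tested members. It was at 3.16 and 2.98 FPKM under sh-MFAP2 versus 2.94 and 2.91 FPKM under the control shRNA. Both sh-MFAP2 values were higher, by a log2 fold change of 0.05 (SE 0.0992, 95% interval -0.23 to 0.33, limma adjusted p = 0.834). The smallest gap between the groups was smaller than the gap between the 2 sh-MFAP2 libraries. The interval ended at 0.33 on the log2 scale, and a miss of the threshold does not show that the groups were alike. BTC-201 stood at 3.07 and 2.80 FPKM under sh-MFAP2 versus 2.80 and 2.81 FPKM under the control shRNA, and BTC-202 at 0.395 and 0.782 FPKM under sh-MFAP2 versus 0.641 and 0.470 FPKM under the control shRNA. The groups overlapped for each transcript.

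HBEGF (heparin-binding EGF-like growth factor; chromosome 5, 140332843 to 140346631, minus strand) varied within groups more than between them. It was at 0.964 and 2.89 FPKM under sh-MFAP2 versus 2.92 and 1.42 FPKM under the control shRNA. Each group held 1 high and 1 low library. The sh-MFAP2 libraries differed 3-fold from each other and the controls 2.06-fold. On the log2(FPKM + 1) scale these differences were 0.99 and 0.70, larger than in 94.3% and 92.3% of genes with a mean of 1 to 10 FPKM. The log2 fold change was -0.15 (SE 0.450, 95% interval -1.44 to 1.13, limma adjusted p = 0.892), and without sh-MFAP2 replicate 1 it was 0.34. HBEGF and EGFR were both at their lowest in sh-MFAP2 replicate 1. In the controls they went opposite ways, with HBEGF higher in replicate 1 and EGFR higher in replicate 2.

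TGFA (transforming growth factor alpha; chromosome 2, 70447280 to 70554193, minus strand) was at 2.31 and 1.996 FPKM under sh-MFAP2 versus 1.71 and 2.17 FPKM under the control shRNA. The groups overlapped, with the lowest value in control replicate 1. The log2 fold change was 0.11 (SE 0.138, 95% interval -0.29 to 0.50, limma adjusted p = 0.750). TGFA-201 carried 77.5% to 89.0% of the transcript sum, and TGFA-203 stood at 0.270 and 0.592 FPKM under sh-MFAP2 versus 0.322 and 0.427 FPKM under the control shRNA.

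EREG (epiregulin) was listed at 0 FPKM in all 4 libraries. AREG (amphiregulin) was at 0.0200 FPKM in sh-MFAP2 replicate 1, which corresponds to 2 inferred reads, and at 0 in the other 3. EGF was at 0 and 0.0299 FPKM under sh-MFAP2 versus 0.00553 and 0.0113 FPKM under the control shRNA, or at most 10.0 inferred reads. A level of 3 reads would be 0.0324 to 0.0443 FPKM for the main AREG transcript and 0.00869 to 0.0119 FPKM for that of EREG, for counting error only. AREG, EREG and EGF were not tested, and no fold is given.

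EREG and AREG are neighbours of BTC. In the order of GRCh38, EPGN, EREG, AREG and BTC lie on chromosome 4 within 486 kb, and of these only BTC was above 1 FPKM. The promoters of the pair at or near 0 are shown as the 120 bases before the start site from RefSeq on GRCh38.p14, plus strand, EREG at chr4:74365023-74365142 and AREG at chr4:74445014-74445133. Capitals mark matches to TATAAA (the TATA box), TGACGTCA (the full cAMP response element) and CCAAT, searched on both strands.
EREG: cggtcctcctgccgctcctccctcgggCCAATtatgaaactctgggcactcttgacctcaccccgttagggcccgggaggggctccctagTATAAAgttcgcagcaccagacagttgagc
AREG: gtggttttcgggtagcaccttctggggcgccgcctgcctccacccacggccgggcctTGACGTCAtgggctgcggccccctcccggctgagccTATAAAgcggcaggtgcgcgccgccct

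In the 250 bases before the RefSeq start, TATAAA was found in 10.7% of 35116 RefSeq promoters, TGACGTCA in 1.65% and CCAAT in 32.0%. The BTC window held none of these 3, nor TGACTCA (4.2% of promoters) or GGGCGG (42.6%). CCAAT was also in the windows of EPGN, EGF and ERBB2, the member with the highest level. TATAAA was also in that of EPGN and, with TGACTCA, in 1 of the 2 EGFR windows. That window (chr7:55109589-55109888) lies inside the gene, and the EGFR window at the gene start held neither motif. The EGF window held TGACTCA too. CCAAT thus did not divide members above 1 FPKM from those below. For TATAAA and TGACTCA, the internal EGFR window was the only one of a member above 1 FPKM. TGACGTCA was in the AREG window alone. A relation of these motifs to level was not tested. GGGCGG was in the windows of HBEGF, ERBB4 and AREG, and in 1 of the 2 windows listed for each of TGFA and EGFR, so that members above and below 1 FPKM shared it. No ERBB3 promoter was available, so ERBB3 was not searched. A match is a description of the letters and not evidence that a factor binds.

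The other genes of the pathway were taken from a list of 49, all found in the table, of which 39 passed 1 FPKM. None of the 39 was called in either direction (lowest limma adjusted p = 0.169), against 0.273% of all genes tested, while 8 (20.5%) had an unadjusted p under 0.05, against 12.3%. In the fit 27 (69.2%) were lower and 12 higher under sh-MFAP2, where 58.0% of all genes tested were lower. The median log2 fold change of the list was -0.15 against -0.05 over all genes tested. Both sh-MFAP2 values lay below both controls in 19 of the 39 (48.7%, against 31.4% of all genes tested) and above in 5 (12.8%, against 17.5%). With libraries scaled by median of ratios, added after the data were seen, 19 lay below and 7 (17.9%) above, against 24.8% and 24.1% of all genes tested. With quantile normalization 18 lay below and 7 (17.9%) above, against 25.2% and 22.7%. The median of all genes then stood at 0.00556 and -8.7e-05, and that of the list at -0.09 and -0.08. These counts describe the list and were not tested.

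None of the 5 further ligands, the neuregulins NRG1 to NRG4 and EPGN, reached 1 FPKM, so that no neuregulin was expressed at that level. The highest of them, NRG4, named after its values were seen, was at 0.0797 and 0.0775 FPKM under sh-MFAP2 versus 0.0216 and 0.0282 FPKM under the control shRNA and was not tested. Of the sheddases and their regulators, 2 of 5 tested genes lay below the controls and 1 above, small counts that, like those of the other roles, stand beside 31.4% and 17.5% of all genes tested. ADAM10 was at 8.35 and 4.96 FPKM under sh-MFAP2 versus 7.38 and 13.1 FPKM under the control shRNA, with overlapping groups and a log2 fold change of -0.54 (limma adjusted p = 0.569). With 1 library left out the ADAM10 value ran from -0.92 without control replicate 1 to -0.17 without control replicate 2, and it was -0.87 without sh-MFAP2 replicate 1 and -0.22 without sh-MFAP2 replicate 2. ADAM9, a related metalloprotease, was at 58.1 and 55.1 FPKM under sh-MFAP2 versus 72.5 and 76.1 FPKM under the control shRNA, a log2 fold change of -0.39 (limma adjusted p = 0.379).

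Among adaptors and effectors, 11 of 19 tested genes (57.9%) lay below the controls and 3 (15.8%) above, against 31.4% and 17.5% of all genes tested. The lowest adjusted p of the list was that of SOS2, an exchange factor that activates RAS. SOS2 was at 2.26 and 2.11 FPKM under sh-MFAP2 versus 4.60 and 4.66 FPKM under the control shRNA, with a log2 fold change of -0.82 (SE 0.0993, limma adjusted p = 0.169). PTPN11, which encodes the phosphatase SHP2, went the other way, at 28.3 and 25.7 FPKM under sh-MFAP2 versus 12.3 and 15.8 FPKM under the control shRNA (log2 fold change 0.91, SE 0.164, limma adjusted p = 0.302). The adaptor SHC1 was at 35.6 and 30.3 FPKM under sh-MFAP2 versus 43.1 and 47.6 FPKM under the control shRNA (log2 fold change -0.45, limma adjusted p = 0.394). CBLC, a ubiquitin ligase of the CBL family, was at 42.9 and 44.4 FPKM under sh-MFAP2 versus 24.5 and 35.1 FPKM under the control shRNA (log2 fold change 0.56, limma adjusted p = 0.415). Without control replicate 1 the CBLC log2 fold change was 0.31. EPS8, a substrate of EGFR, was at 4.90 and 6.005 FPKM under sh-MFAP2 versus 7.68 and 8.53 FPKM under the control shRNA (log2 fold change -0.50, limma adjusted p = 0.384). None of SOS2, PTPN11, SHC1, CBLC and EPS8 passed the test. SOS2, PTPN11 and EPS8 were named because their groups did not overlap, so that pattern is no result for them. SHC1 and CBLC, named for their level, did not overlap either, a pattern found below in 31.4% and above in 17.5% of all genes tested.

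**Figure D4:**
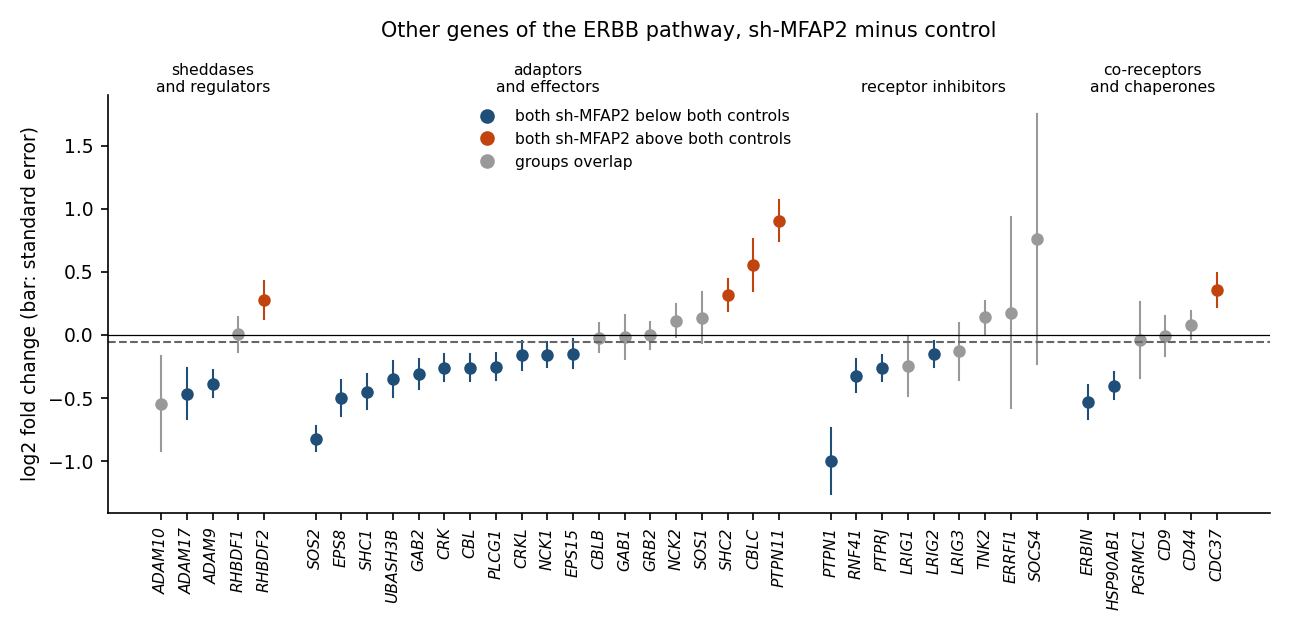
Log2 fold change of FPKM + 1 (vertical axis, sh-MFAP2 minus control) of the 39 tested pathway genes by role, with bars for the standard error, a dashed line at the median of all genes tested (-0.05) and colours for groups that do not overlap. The point of SOS2 is at -0.82 and that of PTPN11 at 0.91, and no gene was called.

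Of the receptor inhibitors, 4 of 9 (44.4%) lay below the controls, against 31.4% of all genes tested, and none above, against 17.5%. PTPN1, the phosphatase PTP1B, which acts on EGFR, was at 14.3 and 8.67 FPKM under sh-MFAP2 versus 22.5 and 24.1 FPKM under the control shRNA (log2 fold change -0.999, limma adjusted p = 0.368). ERRFI1, which encodes the EGFR inhibitor MIG6, was at 12.9 and 12.6 FPKM under sh-MFAP2 versus 23.8 and 4.94 FPKM under the control shRNA, so that the 2 controls stood on either side (log2 fold change 0.18, limma adjusted p = 0.931). Without control replicate 2 the ERRFI1 log2 fold change was -0.86.

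Of the co-receptors and chaperones, 2 of 6 (33.3%) lay below the controls and 1 (16.7%) above, near the 31.4% and 17.5% of all genes tested. HSP90AB1, a chaperone of ERBB2, was at 525 and 560 FPKM under sh-MFAP2 versus 709 and 724 FPKM under the control shRNA (log2 fold change -0.40, limma adjusted p = 0.375). ERBIN, a protein that binds ERBB2 at the basolateral membrane, was at 3.45 and 4.27 FPKM under sh-MFAP2 versus 6.26 and 5.77 FPKM under the control shRNA (log2 fold change -0.53, limma adjusted p = 0.361). It was named because its groups did not overlap, so that pattern is no result for ERBIN. CD9, a tetraspanin that associates with the HBEGF precursor, was at 114 and 107 FPKM under sh-MFAP2 versus 99.1 and 124 FPKM under the control shRNA, with overlapping groups and a log2 fold change of -0.01 (limma adjusted p = 0.984) whose sign was positive under both other scalings.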

How the data were processed

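Sequencing covered 4 libraries of AGS RNA, 2 per group, assigned by their labels. The authors deposited a gene table and a transcript table, taken here as FPKM from the values, since the tables name no unit. The build hg38 is from the submitters' processing notes. The aligner, the counting program and the annotation are not given in the sources used here. Gene values are the length-weighted sums of transcript values over 1 gene length, so changes in short transcripts weigh little.

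Genes, and separately transcripts, with a mean of at least 1 FPKM were tested on log2(FPKM + 1), where folds of low genes are understated, with limma 3.58.1 (trended eBayes, R 4.3.3) and Benjamini-Hochberg adjustment over all tested. Calls needed p under 0.01 and adjusted p under 0.05. The fit was tested on simulated data with planted changes larger than the estimate of any member. It therefore does not show whether changes as small as those of the members would be found. Reads were inferred from the spacing of low values of 8233 single-transcript genes (64.1% to 66.0% whole within 0.05 of a step). Coordinates are from GENCODE 29 on GRCh38, and tables were handled with Python 3.11.15 and pandas 2.3.3.

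The members and lists were chosen with earlier results of these data known. Named pathway genes are, per role, the 2 tested genes with the highest mean FPKM and those with groups that do not overlap and an absolute log2 fold change of at least 0.5, besides any gene called, of which there were none. Alternatives were other filters, pseudocount, scaling, thresholds, a replicate block, summed transcripts and each library left out.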

Additional observations from a re-analysis of the deposited data

How the results depend on the processing

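The count of called members was 0 under all 13 alternatives, and that of the pathway list was 0 under 12 of 13, the exception being 8 with the unadjusted threshold of 0.05. The 27 DEGs became 6 with no filter, 9 with the filter at 5 FPKM, 1214 with the unadjusted threshold of 0.05, and 0 (limma) with any of the 4 libraries left out, where 555 to 2166 had an unadjusted p under 0.05. With the replicate number as a block (replicate block) limma called 0 genes, with 722 at an unadjusted p under 0.05. Same-numbered libraries did not deviate together over all genes (r = -0.06), which does not exclude pairing for single genes. EGFR was lower in replicate 1 than in replicate 2 of both groups. With the block its unadjusted limma p was 0.038 (adjusted p = 0.614). The block changed no call of a member.

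With each library left out, where a lone library is assumed to vary like the other group, the log2 fold change ran from -1.36 to -0.12 for EGFR, -0.31 to 0.04 for ERBB2, -0.10 to 0.11 for ERBB3, -0.01 to 0.22 for TGFA, -0.65 to 0.34 for HBEGF and 0.02 to 0.08 for BTC. Signs turned as follows: ERBB2 was 0.0377 without sh-MFAP2 replicate 2. ERBB3 was -0.00215 without sh-MFAP2 replicate 1, -0.10 leaving out control replicate 1 and -0.15 with summed transcripts. TGFA was -0.00876 without control replicate 1. HBEGF was 0.34 without sh-MFAP2 replicate 1 and reached 0.19 when control replicate 1 was left out. ERRFI1 was -0.86 without control replicate 2 (range -0.86 to 1.21 over libraries left out). CD9 (range -0.17 to 0.15 over libraries left out) was 0.01004 with quantile normalization, 0.01002 with summed transcripts, 0.0624 with median of ratios, 0.0371 without sh-MFAP2 replicate 2 and 0.15 leaving out control replicate 2. The cause was not tested. With 2 libraries a group, the intervals of EGFR and HBEGF were the widest of the 6. ERBB4, AREG, EREG and EGF had 0 to 10.0 inferred reads per library, too few for a difference to be detectable at this depth.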
